A study of Homo sapiens with 16 samples.

Results

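The regions described here lie at the loci of 7 genes of the ETS family of transcription factors, in 16 ATAC-seq peak lists from MOLT4 and DND41, a pair of established human leukaemia lines of the T-cell lineage. The rule that picks them uses position on the hg19 build and no measured value. The windows were chr11:128320000-128470000 for ETS1, chr11:128550000-128690000 for FLI1, chr21:39740000-40045000 for ERG, chr21:40170000-40205000 for ETS2, chr12:11790000-12055000 for ETV6, chr13:41495000-41605000 for ELF1 and chr11:47370000-47410000 for SPI1. Peaks overlapping by 1 base or more, within or across libraries, were joined into regions, and every region touching a window was kept, which gave 97 of the 131357 regions of the series. ERG held 19 of them, ETV6 27, ETS1 15, FLI1 14, ELF1 13, SPI1 5 and ETS2 4. Regions are named by locus and numbered along the chromosome, so that ETS1-8 is the eighth region of the ETS1 window.

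ATAC-seq maps open chromatin through the insertions that Tn5 transposase makes into accessible DNA. Cells of each line were kept with 100 nM ACBI-1 or with DMSO, its vehicle, for 24 h or 3 h, giving 8 groups of 2 libraries. ACBI-1 is a PROTAC, a molecule that recruits a ubiquitin ligase to the SMARCA2 and SMARCA4 ATPases and to PBRM1, all parts of SWI/SNF chromatin remodellers, and so has them degraded. Whether the paired libraries of each group were grown as separate cultures is not stated in the labels, so every p-value here measures library-to-library spread, part or all of which could be technical. The lines were taken from the sample titles: the cell line field of 8 of the 16 samples named the other line, while the line code inside the peak names matched the title in 16 of 16.

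ETS factors share a winged helix-turn-helix domain that reads a GGAA core, and many regulatory elements of blood cells carry several such cores. ETS1 is abundant in T cells, FLI1 and ERG are close relatives that act in blood stem and progenitor cells, and ETV6 is mainly a repressor and a frequent partner in leukaemia gene fusions. ELF1 and ETS2 are broadly expressed, and SPI1 encodes PU.1, a factor of myeloid and B cells that is switched off as thymic progenitors commit to the T lineage. ERG is also shut off during normal T-cell commitment but stays on in some T-cell leukaemias. The SWI/SNF remodellers move or evict nucleosomes and help to keep enhancers accessible.

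The promoters below are the starts listed furthest upstream in RefSeq (GRCh38.p14) for the 4 of the 7 genes with an entry in the table used here, namely ERG, ETS2, ETV6 and ELF1. They show how unequal the DNA at these starts is and how often the motif bound by the family itself occurs there. Each runs 5′ to 3′ on the strand of the gene over the 250 bases before the start, and capitals mark the GGAA core or its reverse complement TTCC. The hg19 regions cannot be placed on these GRCh38 sequences here, so no region is assigned to a promoter, exon or intron. Whether a printed start lies inside its hg19 window was not determined either. Among genes that overlap the ETS gene itself, RefSeq lists MIR6090 and ETS1-AS1 at ETS1, SENCR at FLI1, SNRPGP13 at ERG, LOC124902879 at ETV6 and RGS17P1 at ELF1. The rest of each window was not searched for genes, so a region in any of the 7 windows need not belong to the ETS gene.
ERG, chr21:38660668-38660917, minus strand: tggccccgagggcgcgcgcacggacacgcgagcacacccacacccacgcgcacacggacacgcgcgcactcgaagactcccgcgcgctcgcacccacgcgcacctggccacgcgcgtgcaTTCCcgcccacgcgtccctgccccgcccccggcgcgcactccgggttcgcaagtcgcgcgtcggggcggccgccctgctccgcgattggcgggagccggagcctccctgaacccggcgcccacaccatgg
ETS2, chr21:38804933-38805182, plus strand: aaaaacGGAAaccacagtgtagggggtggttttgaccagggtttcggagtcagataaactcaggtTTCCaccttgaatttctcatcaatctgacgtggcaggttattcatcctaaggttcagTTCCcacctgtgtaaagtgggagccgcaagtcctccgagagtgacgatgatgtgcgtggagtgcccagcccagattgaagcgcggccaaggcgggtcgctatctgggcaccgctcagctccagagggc
ETV6, chr12:11649424-11649673, plus strand: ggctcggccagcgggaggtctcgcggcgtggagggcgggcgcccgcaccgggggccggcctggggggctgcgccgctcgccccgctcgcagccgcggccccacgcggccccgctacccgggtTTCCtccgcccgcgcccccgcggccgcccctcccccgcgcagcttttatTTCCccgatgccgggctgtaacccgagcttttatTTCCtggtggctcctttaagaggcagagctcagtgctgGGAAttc
ELF1, chr13:41061387-41061636, minus strand: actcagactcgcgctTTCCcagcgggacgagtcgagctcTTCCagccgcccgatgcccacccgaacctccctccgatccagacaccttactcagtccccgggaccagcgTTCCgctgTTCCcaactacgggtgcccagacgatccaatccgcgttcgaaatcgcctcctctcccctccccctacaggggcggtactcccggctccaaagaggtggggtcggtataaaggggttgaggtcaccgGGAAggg
As printed, the ERG promoter was 77.2% G and C with 1 core, ETV6 74.4% with 4 cores, ELF1 64% with 5 cores and ETS2 54.4% with 3 cores. RefSeq lists 4 starts for ERG, 3 for ELF1, 2 for ETS2 and 1 for ETV6, so these values hold for the printed start alone. The other starts had 36.4, 46.4 and 44.8% G and C at ERG, with 4, 1 and 2 cores. They had 34.4 and 33.2% at ELF1, with 3 and 0 cores, and 68.8% at ETS2, with 6. The core was no mark of the family: GGAA or TTCC occurred in 92.7% of the 35116 promoters of the same length, with a median of 3. The longer ETS site CCGGAAG, which contains the core, was searched on either strand and occurred in 8.52% of all promoters and in 0 of these 4. The RUNX-type motif TGTGGT occurred in 11% of all promoters and, among these 4, once, at ETS2.

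The lists were shorter with ACBI-1 throughout the genome, at 26145 to 33870 peaks per library, against 39117 to 46712 with DMSO. The files hold positions only, so read depth is unknown and a missing peak can be an element below the caller's limit. All 8 libraries of 24 h have p03 in their peak names and all 8 of 3 h have p04, so time and whatever the tag stands for cannot be told apart. Of the 97 regions, 10 had a peak in all 16 libraries (10.3%, against 9.16% of all regions) and 34 had one in a single library (35.1%, against 51.0%). In all 8 DMSO libraries 23 regions had a peak (23.7%, against 14.1%). Regions with peaks in MOLT4 libraries alone numbered 46 (47.4%, against 27.6%), and those in DND41 libraries alone 15 (15.5%, against 40.6%).

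Of the 7 loci, ERG differed most between the lines. Its window was open in MOLT4 and almost empty in DND41: 17 of its 19 regions had peaks in MOLT4 alone, 1 in DND41 alone and 1 in both lines. In MOLT4 the window held 9 and 9 regions with a peak in the ACBI-1 libraries of 24 h, 10 and 9 with DMSO at 24 h, 7 and 5 with ACBI-1 at 3 h and 10 and 10 with DMSO at 3 h. In DND41 it held 0 in each of the 4 ACBI-1 libraries, 1 and 2 with DMSO at 24 h and 1 and 1 with DMSO at 3 h. The lowest MOLT4 library thus lay above the highest DND41 library. The mean was 8.625 ± 1.77 regions in MOLT4 and 0.625 ± 0.744 in DND41 (SD, n = 8 each), a difference of 8 (two-sided exact permutation test with line labels exchanged within time and treatment, p = 0.00154, the smallest possible; adjusted p = 0.0221 over 2789 bins of 100 kb and the 7 windows). A difference is called here where its adjusted p is under 0.05. In the same test 12.9% of the 100 kb bins held more regions in MOLT4 and 7.92% held fewer. ERG-6 and ERG-7 at this locus and ETS1-11 at ETS1 had peaks in all 8 MOLT4 libraries and no DND41 library, 3 of the 97 regions against 0.945% of all regions. The bases covered by peaks averaged 2933 ± 718 bp in MOLT4 and 163 ± 235 bp in DND41 (SD, n = 8 each, adjusted p = 0.0076 in the exact permutation test). By covered bases 29.1% of the 100 kb bins were called higher in MOLT4 and 15.1% lower.

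The only ERG region shared by the lines was ERG-2 (chr21:39758752-39759507), near one end of the window. In MOLT4 it was 419 and 350 bp wide with ACBI-1 at 24 h, 508 and 557 bp with DMSO at 24 h, 347 and 344 bp with ACBI-1 at 3 h and 484 and 428 bp with DMSO at 3 h. In DND41 it had no peak in the 4 ACBI-1 libraries, 286 and 514 bp with DMSO at 24 h and 186 and 155 bp with DMSO at 3 h. Within each line the ACBI-1 libraries lay below the DMSO libraries without overlap. Covered bases per region, counted as 0 where a library had no peak, averaged 182.5 ± 197 bp with ACBI-1 and 390 ± 158 bp with DMSO at ERG-2 (SD, n = 8 each; adjusted exact permutation p = 0.0353). ERG-2 was also the 1 region of the 24 open in all 4 DND41 DMSO libraries that had a peak in no DND41 ACBI-1 library (4.17%, against 7.99% of all such regions).

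A neighbouring pair, ERG-6 (chr21:39847427-39847843) and ERG-7 (chr21:39848038-39848784), had peaks in all 8 MOLT4 libraries and in no DND41 library. ERG-7 was 598 and 507 bp wide with ACBI-1 at 24 h, 747 and 592 bp with DMSO at 24 h, 517 and 454 bp with ACBI-1 at 3 h and 245 and 362 bp with DMSO at 3 h. The treatments overlapped at 24 h, and at 3 h both ACBI-1 widths lay above both DMSO widths. ERG-6 ranged over 214 to 338 bp with ACBI-1 and 195 to 360 bp with DMSO in MOLT4. A further region, ERG-3 (chr21:39772336-39772770), had a peak in all 4 MOLT4 DMSO libraries, at 435, 175, 407 and 341 bp, and in none of the 4 MOLT4 ACBI-1 libraries. The remaining ERG regions had peaks in at most 6 libraries. ERG-12 and ERG-15, named after their values were seen, each had a peak in 6 MOLT4 libraries and in no DND41 library.

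**Figure D1:**
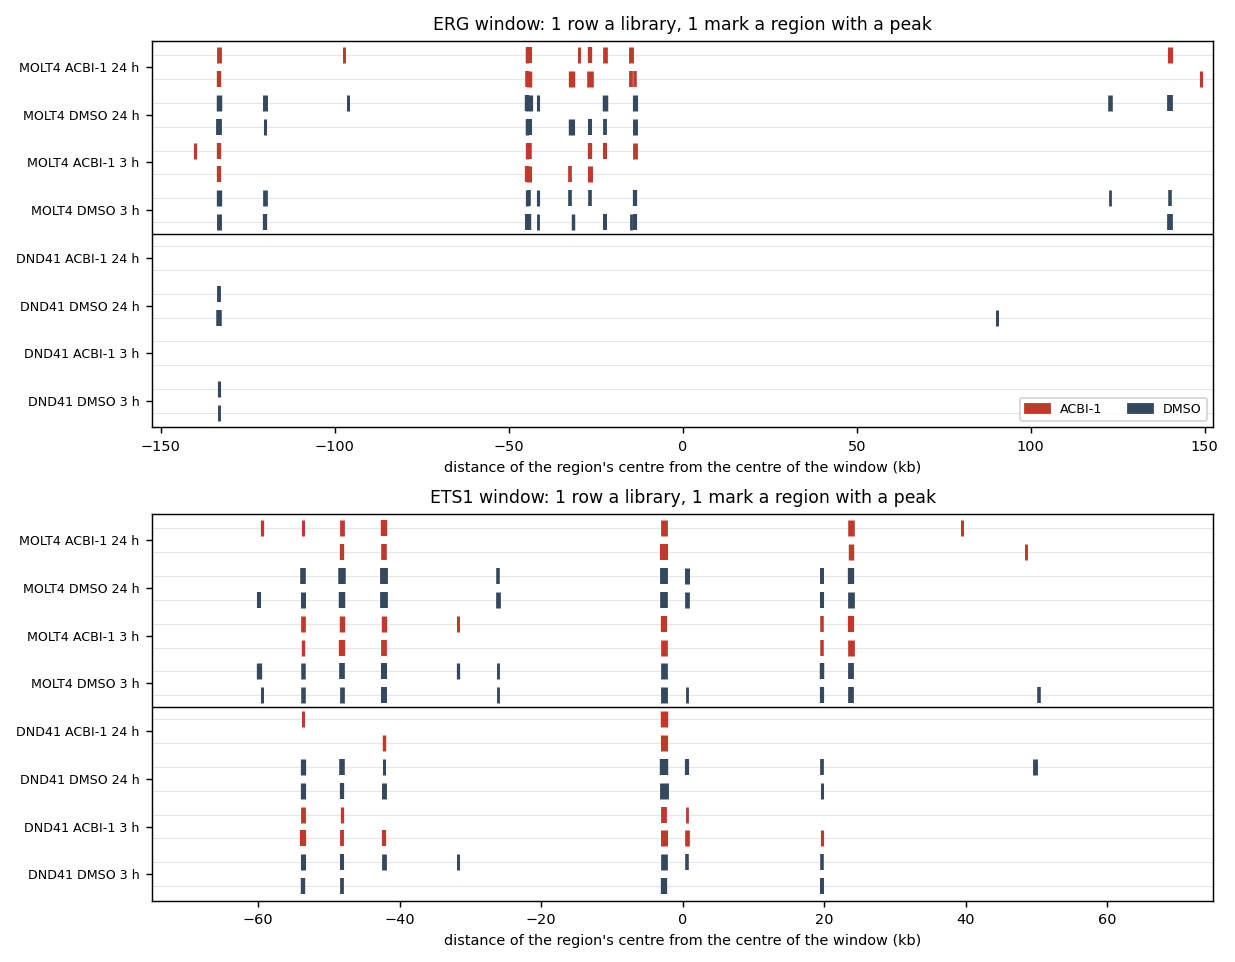
Regions with a peak in the ERG window (top) and the ETS1 window (bottom), with 1 row per library and the distance of each region's centre from the centre of the window on the x axis, in kb. Marks are red for ACBI-1 and dark for DMSO, and thicker for wider peaks. In the ERG window MOLT4 rows hold 5 to 10 marks and DND41 rows 0 to 2. In the ETS1 window ETS1-8, near the centre, is marked in all 16 rows and ETS1-11, at the right, in the 8 MOLT4 rows alone.

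At ERG the number of regions was also lower with ACBI-1, at 3.75 ± 4.2 regions against 5.5 ± 4.57 with DMSO (SD over both lines, n = 8 each), a difference of -1.75 (exact permutation test with treatment exchanged within line and time, p = 0.00463, adjusted p = 0.0232). Within MOLT4 the means were 7.5 ± 1.91 with ACBI-1 and 9.75 ± 0.5 with DMSO (SD, n = 4 each). The MOLT4 difference was -0.5 at 24 h and -4 at 3 h. Over both lines the treatment difference changed by 1.5 regions between 24 h and 3 h (exact permutation test with time labels exchanged, p = 0.25, adjusted p = 1). With every library cut to its 26145 widest peaks, the difference at ERG was 0.625 in the other direction (p = 0.528 in the exact permutation test), while the line difference kept its call.

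ETS1 also held more regions in MOLT4. The window had 7 and 5 regions with a peak with ACBI-1 at 24 h, 8 and 9 with DMSO at 24 h, 7 and 6 with ACBI-1 at 3 h and 9 and 10 with DMSO at 3 h in MOLT4. In DND41 it had 2 and 2 with ACBI-1 at 24 h, 7 and 5 with DMSO at 24 h, 4 and 6 with ACBI-1 at 3 h and 7 and 4 with DMSO at 3 h. Over the line comparison the means were 7.625 ± 1.69 regions in MOLT4 and 4.625 ± 2 in DND41 (SD, n = 8 each; exact permutation p = 0.00309, adjusted p = 0.0271). Over the treatment comparison they were 4.875 ± 2.03 with ACBI-1 and 7.375 ± 2.07 with DMSO (p = 0.00926, adjusted p = 0.0326 in the exact test). The adjusted p for treatment was 0.0760 without DND41 ACBI-1 3 h replicate 1 and 0.0812 without DND41 DMSO 3 h replicate 1.

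ETS1-8 (chr11:128391865-128392889) was the one ETS1 region open in all 16 libraries. Its peaks were 562 to 872 bp wide with ACBI-1, with a median of 706 bp, and 622 to 980 bp with DMSO, with a median of 760.5 bp. The ranges overlapped and the width was not called (log2 ratio -0.14, adjusted p = 0.219 in the exact permutation test over always-open regions, those with a peak in all 16 libraries). The DND41 ACBI-1 libraries of 24 h had a peak at ETS1-8 and at 1 further region each. ETS1-11 (chr11:128418377-128419148) had a peak in all 8 MOLT4 libraries and in no DND41 library, with 611 ± 80.0 bp under ACBI-1 and 600.5 ± 64.6 bp under DMSO in MOLT4 (SD, n = 4 each). ETS1-7 (chr11:128368666-128369111) was at 249, 406, 156 and 145 bp in the 4 MOLT4 DMSO libraries and had no peak in any ACBI-1 library or in DND41.

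ETS1-10 (chr11:128414555-128414945), chosen after its values were seen, had a peak in all 8 DMSO libraries, at 170 to 365 bp. With ACBI-1 it had none in the 4 libraries of 24 h and peaks of 240, 236 and 187 bp in 3 of the 4 libraries of 3 h. Covered bases averaged 82.9 ± 115 bp with ACBI-1 and 288 ± 60.1 bp with DMSO (SD, n = 8 each; adjusted exact permutation p = 0.0353). By presence ETS1-10 was tested for treatment and not called (adjusted exact permutation p = 0.0573). ETS1-4 and ETS1-5, also chosen after their values were seen, which had peaks in all 8 MOLT4 libraries and in 6 and 5 DND41 libraries, covered more bases in MOLT4. ETS1-4 averaged 534 ± 148 bp in MOLT4 and 242 ± 176 bp in DND41 (SD, n = 8 each; adjusted exact permutation p = 0.0182).

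FLI1, next to ETS1 on the same chromosome, had fewer regions with ACBI-1, and the line comparison did not pass. It had 4 and 4 regions with a peak with ACBI-1 at 24 h, 7 and 8 with DMSO at 24 h, 5 and 6 with ACBI-1 at 3 h and 8 and 8 with DMSO at 3 h in MOLT4. In DND41 it had 5 and 6 with ACBI-1 at 24 h, 8 and 6 with DMSO at 24 h, 5 and 6 with ACBI-1 at 3 h and 9 and 8 with DMSO at 3 h. The ACBI-1 libraries lay at 4 to 6 and the DMSO libraries at 6 to 9, touching at 6. The means were 5.125 ± 0.835 regions with ACBI-1 and 7.75 ± 0.886 with DMSO (SD, n = 8 each; p = 0.00309, adjusted p = 0.0207 in the exact permutation test). Between the lines they were 6.25 ± 1.75 in MOLT4 and 6.625 ± 1.51 in DND41 (adjusted p = 0.755 in the exact test).

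FLI1-2 (chr11:128563398-128565346) was the broadest region of the 97 by mean width, at 1217 bp over the 16 libraries. It was 740 to 1505 bp wide with ACBI-1, with a median of 1276 bp, and 481 to 1849 bp with DMSO, with a median of 1315.5 bp. In 6 of the 8 libraries of 3 h it was split into 2 peaks, whose widths were added. Beside it, FLI1-3 (chr11:128565645-128566156) had a peak in all 8 DMSO libraries and in 2 of 8 ACBI-1 libraries. It was 303, 329, 316 and 235 bp wide in the MOLT4 DMSO libraries and absent from the 4 MOLT4 ACBI-1 libraries. In DND41 it was absent from the ACBI-1 libraries of 24 h, 493 and 240 bp with DMSO at 24 h, 146 and 275 bp with ACBI-1 at 3 h and 442 and 198 bp with DMSO at 3 h. Its presence was called lower with ACBI-1 (exact permutation test, adjusted p = 0.0497), and the call held in 0 of the 16 fits that left out 1 library, where the adjusted p was 0.0501 to 0.0587. It was lost too from midpoints (0.0505) and at equal list lengths, where it could not be tested.

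FLI1-4 (chr11:128586183-128587866) had a peak in every library and, over both lines, the largest log2 width ratio in size among the 10 always-open regions of these loci. In MOLT4 it was 333 and 618 bp with ACBI-1 at 24 h, 1281 and 1459 bp with DMSO at 24 h, 399 and 559 bp with ACBI-1 at 3 h and 866 and 926 bp with DMSO at 3 h. In DND41 it was 597 and 356 bp with ACBI-1 at 24 h, 921 and 793 bp with DMSO at 24 h, 362 and 838 bp with ACBI-1 at 3 h and 667 and 368 bp with DMSO at 3 h. The groups were apart in MOLT4 and in DND41 at 24 h, and overlapped in DND41 at 3 h. The widths of 2 separate peaks were added in MOLT4 DMSO 3 h replicates 1 and 2 and in MOLT4 ACBI-1 24 h replicate 2. The same was done in DND41 DMSO 3 h replicate 1 and DND41 DMSO 24 h replicate 2. These values are thus not always the width of 1 peak. The means were 508 ± 177 bp with ACBI-1 and 910 ± 340 bp with DMSO (SD, n = 8 each), a log2 ratio of -0.81 that did not pass (p = 0.0201, adjusted p = 0.118 in the exact permutation test). FLI1-8 (chr11:128598804-128599500), named after its values were seen, had no peak with ACBI-1 at 24 h in either line and peaks of 222 to 418 bp in the 4 DMSO libraries of 24 h. Its covered bases averaged 114.5 ± 176 bp with ACBI-1 and 366 ± 146 bp with DMSO (SD, n = 8 each; adjusted exact permutation p = 0.0353). By presence FLI1-8 was tested for treatment and not called (adjusted exact permutation p = 0.0573). FLI1-13 (chr11:128646092-128646774), likewise chosen after its values were seen, had peaks in no MOLT4 library and in 5 DND41 libraries (adjusted p = 0.0433 in the exact test). That call was lost at equal list lengths, at the common minimum width, under the replicate block and without DND41 DMSO 24 h replicate 1, where its peaks did not allow a test.

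**Figure D2:**
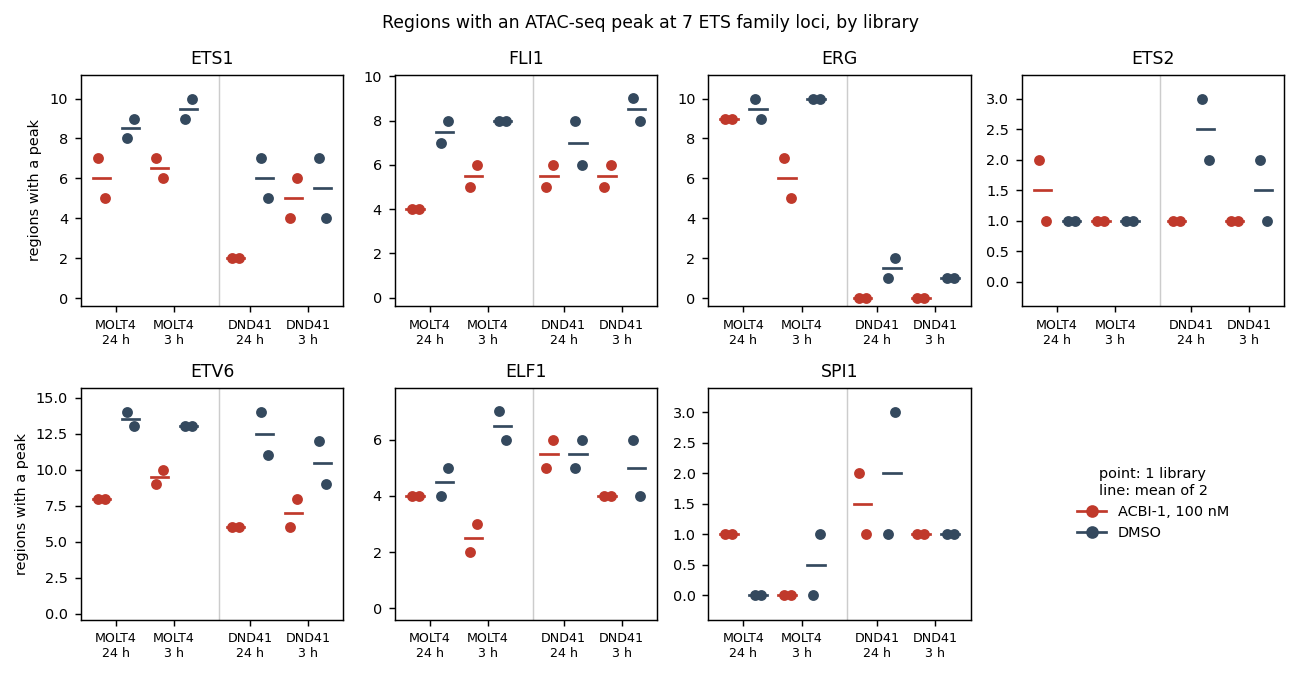
Number of regions with a peak per library at each of the 7 loci, by line and time, with ACBI-1 as red and DMSO as dark points, 1 point per library and a line at the mean of each group of 2. At ETV6 all ACBI-1 points (6 to 10) lie below the DMSO points of their own line and time, and at ERG all MOLT4 points (5 to 10) lie above all DND41 points (0 to 2).

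ETV6 had the largest treatment difference of the 7 loci in number of regions, and it also held the most regions, 27. By the same count 34.1% of the 100 kb bins held fewer regions with ACBI-1. In MOLT4 it had 8 and 8 regions with a peak with ACBI-1 at 24 h, 14 and 13 with DMSO at 24 h, 9 and 10 with ACBI-1 at 3 h and 13 and 13 with DMSO at 3 h. In DND41 it had 6 and 6 with ACBI-1 at 24 h, 14 and 11 with DMSO at 24 h, 6 and 8 with ACBI-1 at 3 h and 12 and 9 with DMSO at 3 h. Within each line and time every ACBI-1 library lay below every DMSO library. The means were 7.625 ± 1.51 regions with ACBI-1 and 12.375 ± 1.69 with DMSO (SD, n = 8 each), a difference of -4.75 (exact permutation test, p = 0.00154, adjusted p = 0.0178). Covered bases averaged 3907 ± 570 bp with ACBI-1 and 6274 ± 1613 bp with DMSO (SD, n = 8 each; adjusted p = 0.0143 in the exact test), while 69.9% of the 100 kb bins covered fewer bases with ACBI-1 and 0.0359% more. MOLT4 held 11 ± 2.51 regions and DND41 9 ± 3.07 (SD, n = 8 each; adjusted p = 0.0444 in the exact test). That call held without DND41 ACBI-1 3 h replicate 2, without either DND41 DMSO library of 3 h, without DND41 DMSO 24 h replicate 1 and without MOLT4 DMSO 24 h replicate 2. Without any of the other 11 libraries the adjusted p was 0.0578 to 0.0937 in the exact test.

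Of the 27 ETV6 regions 4 had a peak in all 16 libraries. ETV6-17 (chr12:11965255-11966506) was 895 to 1105 bp with ACBI-1, with a median of 1036 bp, and 709 to 1101 bp with DMSO, with a median of 940 bp. Its log2 width ratio was 0.16, with the higher mean under ACBI-1, and did not pass (adjusted p = 0.0840 in the exact permutation test). ETV6-1 (chr12:11801690-11803277) was 473 to 1508 bp with ACBI-1 and 463 to 1381 bp with DMSO. The widths of 2 peaks were added there in MOLT4 ACBI-1 24 h replicates 1 and 2. The same held for replicate 1 of DMSO at 3 h in MOLT4 and in DND41. It was wider in DND41, at 775 ± 213 bp in MOLT4 and 1094 ± 287 bp in DND41 (SD, n = 8 each; log2 ratio -0.51, adjusted p = 0.0499 in the exact test), and after each library's median width was subtracted the adjusted p was 0.0512. ETV6-13 (chr12:11951487-11952345) averaged 394 ± 112 bp with ACBI-1 and 505 ± 130 bp with DMSO (SD, n = 8 each; adjusted p = 0.316 in the exact test).

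ETV6-22 (chr12:12008480-12009204) had a peak in all 8 DMSO libraries and in 1 of 8 ACBI-1 libraries. In MOLT4 it was absent from the 4 ACBI-1 libraries and 494, 572, 152 and 180 bp wide in the DMSO libraries. In DND41 it was 186 bp in ACBI-1 3 h replicate 2, absent from the other ACBI-1 libraries, and 274, 508, 299 and 232 bp in the DMSO libraries. Its presence was called lower with ACBI-1 (adjusted p = 0.0442 in the exact permutation test), and in 9 of the 16 fits without 1 library. The call was lost, at an adjusted p of 0.0501 to 0.0582, without DND41 ACBI-1 3 h replicate 1, DND41 DMSO 3 h replicate 1, MOLT4 DMSO 3 h replicate 2 or any ACBI-1 library of 24 h. It was lost too at a common minimum width (0.0527) and at equal list lengths (0.0990). ETV6-6 (chr12:11879998-11880667), named after its values were seen, covered 203 ± 183 bp with ACBI-1 and 501 ± 89.5 bp with DMSO (SD, n = 8 each; adjusted exact permutation p = 0.0353). With ACBI-1 it kept peaks of 178 to 353 bp in the 4 libraries of 3 h and 1 of 438 bp among the 4 libraries of 24 h.

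**Figure D3:**
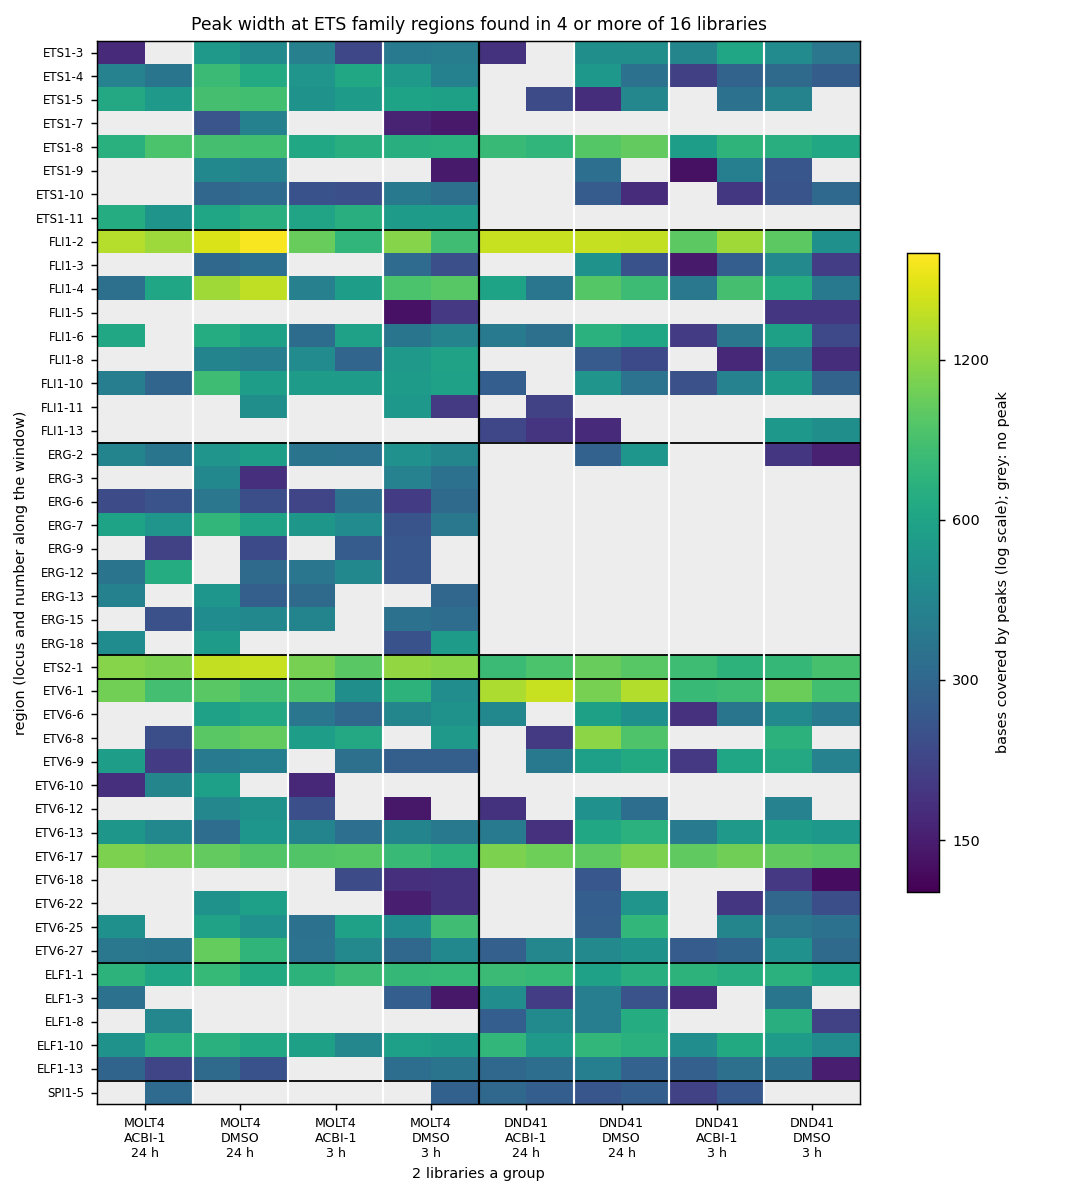
Heat map of the bases covered by peaks, on a log colour scale, at the 45 regions with a peak in at least 4 of the 16 libraries. Rows are regions in order along each window, columns are libraries with 2 per group, and grey marks a library with no peak. ERG-2 is the one ERG row with colour in DND41, and FLI1-3 and ETV6-22 have colour in all 8 DMSO columns and in 2 and 1 of the 8 ACBI-1 columns.

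ELF1 was not called for treatment or line. In MOLT4 it had 4 and 4 regions with a peak with ACBI-1 at 24 h, 4 and 5 with DMSO at 24 h, 2 and 3 with ACBI-1 at 3 h and 7 and 6 with DMSO at 3 h. In DND41 it had 5 and 6 with ACBI-1 at 24 h, 5 and 6 with DMSO at 24 h, 4 and 4 with ACBI-1 at 3 h and 6 and 4 with DMSO at 3 h. Counts were equal or nearly so at 24 h and apart in MOLT4 at 3 h. The means were 4 ± 1.2 regions with ACBI-1 and 5.375 ± 1.06 with DMSO (SD, n = 8 each; p = 0.0833, adjusted p = 0.150 in the exact permutation test). The always-open ELF1-1 (chr13:41495445-41496271) was 614 to 792 bp with ACBI-1 and 580 to 761 bp with DMSO, and ELF1-10 (chr13:41578999-41579771) 432 to 744 bp with ACBI-1 and 453 to 744 bp with DMSO. Neither width was called (adjusted p = 0.482 and 0.619 in the exact test). ELF1-8 (chr13:41566976-41567652), named after its values were seen, had a peak in 1 of 8 MOLT4 and 6 of 8 DND41 libraries (adjusted p = 0.0433 in the exact test). Under the replicate block and without MOLT4 ACBI-1 24 h replicate 1 its peaks did not allow a test.

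At ETS2, ETS2-1 (chr21:40177080-40178603) had a peak in every library, and the other 3 regions had peaks in 3, 1 and 1 libraries. It was the sole region with a peak in 12 of the 16 libraries. In MOLT4 it was 1153 and 1097 bp with ACBI-1 at 24 h, 1477 and 1514 bp with DMSO at 24 h, 1079 and 939 bp with ACBI-1 at 3 h and 1209 and 1158 bp with DMSO at 3 h. In DND41 it was 792 and 867 bp with ACBI-1 at 24 h, 999 and 929 bp with DMSO at 24 h, 809 and 712 bp with ACBI-1 at 3 h and 754 and 847 bp with DMSO at 3 h. It was narrower with ACBI-1 without overlap in MOLT4 at either time and in DND41 at 24 h. Its log2 width ratio over all libraries was -0.23, with means of 931 ± 163 bp with ACBI-1 and 1111 ± 281 bp with DMSO (SD, n = 8 each). The width did not pass over the always-open regions (adjusted p = 0.0634 in the exact permutation test), although the same change in covered bases passed over the larger set of regions in at least 4 libraries (adjusted p = 0.0474). It was wider in MOLT4, at 1203 ± 197 bp against 839 ± 93.4 bp in DND41 (SD, n = 8 each; log2 ratio 0.51, adjusted p = 0.0308 in the exact test). The count of regions at ETS2 was 1.125 ± 0.354 with ACBI-1 and 1.5 ± 0.756 with DMSO (adjusted p = 0.537 in the exact test).

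Over both lines SPI1 had the fewest regions with a peak per library of the 7 windows, while in DND41 alone ERG had fewer. None of its 5 regions had a peak in more than 8 libraries. In MOLT4 the window held 1 and 1 regions with a peak with ACBI-1 at 24 h, 0 and 0 with DMSO at 24 h, 0 and 0 with ACBI-1 at 3 h and 0 and 1 with DMSO at 3 h. In DND41 it held 2 and 1 with ACBI-1 at 24 h, 1 and 3 with DMSO at 24 h, 1 and 1 with ACBI-1 at 3 h and 1 and 1 with DMSO at 3 h. Every DND41 library had at least 1 region and 5 of the 8 MOLT4 libraries had none. The means were 0.375 ± 0.518 regions in MOLT4 and 1.375 ± 0.744 in DND41 (SD, n = 8 each; p = 0.0139, adjusted p = 0.0574 in the exact permutation test). Without DND41 ACBI-1 24 h replicate 2 or MOLT4 DMSO 3 h replicate 2 the adjusted p was 0.0342 and 0.0354. The commonest region, SPI1-5 (chr11:47395363-47395728), chosen after its values were seen, had peaks in 2 MOLT4 and 6 DND41 libraries, of 208 to 314 bp. With ACBI-1 and with DMSO the mean of the window was 0.875 regions alike (difference 0, exact p = 1).

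Read over the 7 loci, treatment gave fewer regions at ETV6, FLI1, ERG and ETS1, which is 4 of 7, while 34.1% of the 100 kb bins held fewer regions with ACBI-1 and 0% held more. The windows are 35 to 305 kb long, so their counts are not on the scale of the bins. As a share of each library's regions, none of the 7 loci was called, against 5.02% of bins lower and 20.2% higher with ACBI-1: ETV6 came nearest (exact p = 0.0417, adjusted p = 0.113), ETS1 had an adjusted p of 0.589, FLI1 0.368 and ERG 0.662. With every list cut to its 26145 widest peaks none was called either, and the ELF1 difference was 0.625 against -1.375 with whole lists. The number of peaks per library moved with treatment in every line and time, and its part in these losses was not tested beyond these 2 scales. For the line comparison on the share scale, ETS1, ERG and ETV6 were again called higher in MOLT4 (exact permutation test, adjusted p = 0.0111 for each), as were 21.2% of the bins. SPI1 was called lower in MOLT4 on that scale (adjusted p = 0.0335 in the exact test), as were 10.8% of the bins.

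Of single regions, 7 of the 97 had a pattern of peaks that could be tested for treatment. FLI1-3 and ETV6-22 were called less often with ACBI-1 and none more often, against 27.9% and 0.111% of the 8082 regions tested in the genome. The share of 2 in 7 is near that background, and the genome count of 2251 regions lost was 0 to 1110 when 1 library was left out. Taken by covered bases, 45 regions with a peak in at least 4 libraries were tested, and 7 were lower with ACBI-1 (ETS1-10, FLI1-3, FLI1-8, ERG-2, ETS2-1, ETV6-6 and ETV6-22), against 9.68% of 45121 regions, and 0 higher, against 0.082%. For line, 12 regions could be tested by presence. ETS1-11, ERG-6, ERG-7, ERG-12 and ERG-15 were called more often in MOLT4, against 40.8% of 11709 regions, and FLI1-13 and ELF1-8 more often in DND41, against 23.3%. By covered bases 10 of the 45 were higher in MOLT4, against 13%, and ETV6-1 alone was higher in DND41, against 7.78%.

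Some regions lost every peak within a line. Of the 30 regions with a peak in all 4 MOLT4 DMSO libraries, 4 had none in the MOLT4 ACBI-1 libraries (13.3%, against 8.88% of all such regions): ETS1-7, FLI1-3, ERG-3 and ETV6-22. Within 1 line and time, regions with a peak in neither ACBI-1 library and in both libraries of DMSO numbered 9 of 34 in MOLT4 at 24 h (26.5%, against 27.7%) and 11 of 37 in MOLT4 at 3 h (29.7%, against 22.2%). They numbered 9 of 31 in DND41 at 24 h (29%, against 27.1%) and 6 of 28 in DND41 at 3 h (21.4%, against 20.9%). No test of these shares was made. Regions found in at least 2 libraries and in ACBI-1 libraries alone numbered 0 of 97, against 1.65% of all regions.

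Among the 10 always-open regions no width was called for treatment, against 3.25% narrower and 0.0166% wider of the 12037 always-open regions. Their median log2 ratio of ACBI-1 to DMSO was -0.12, beside -0.12 over all always-open regions. For line, ETS2-1 was called wider in MOLT4, against 6.16%, and ETV6-1 wider in DND41, against 3.12%. For time, ETS1-8, FLI1-2, ETV6-1, ETV6-17 and ETS2-1 were called wider at 24 h than at 3 h, 5 of 10 against 30.8% of all always-open regions, with 0 wider at 3 h, against 0.174%. The log2 ratio of 24 h to 3 h was 0.77 at FLI1-2 (adjusted p = 0.0157 in the exact permutation test), and its median was 0.29 over the 10 regions and 0.20 over all. The tag in the peak names moved with time, as did the median width. By number of regions none of the 7 loci was called between the times, nor were any of the bins (0% in either direction). In covered bases ETS2 was called, at 1264 ± 328 bp at 24 h and 961 ± 175 bp at 3 h (SD, n = 8 each, adjusted p = 0.0130 in the exact permutation test). The 100 kb bins were tested in the same way and that p was adjusted over them too, but the share of bins called was not recorded. The call therefore has no background share beside it and is not read as particular to ETS2.

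**Figure D4:**
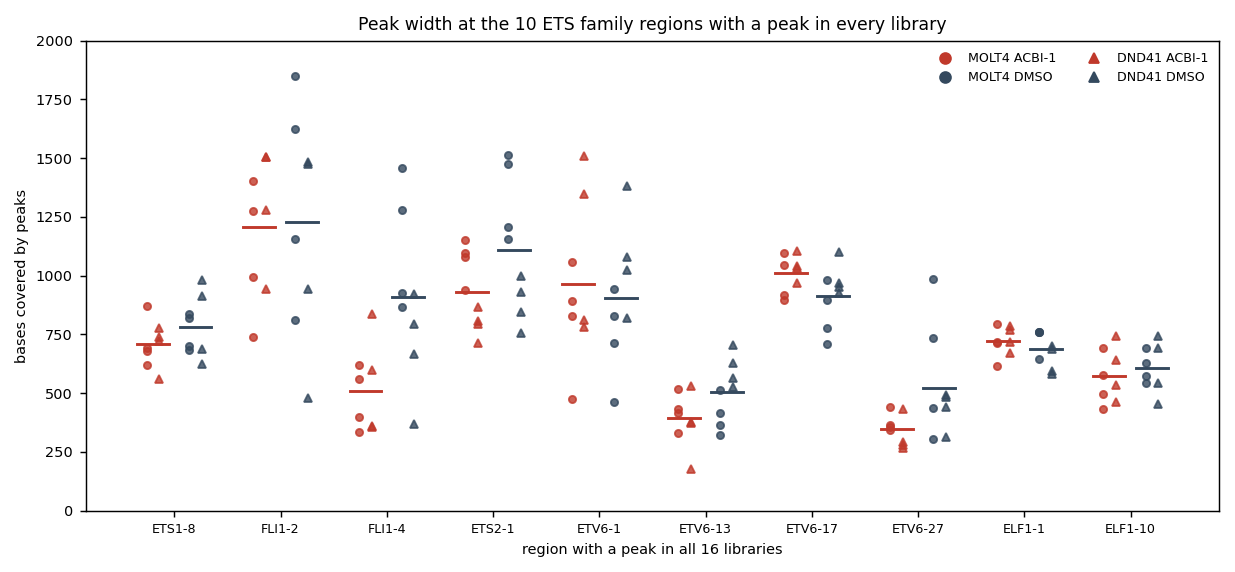
Bases covered by peaks at the 10 regions with a peak in all 16 libraries, with 1 point per library, ACBI-1 in red to the left of DMSO in dark, circles for MOLT4 and triangles for DND41, and a line at the mean of each 8 libraries. FLI1-4 is at 333 to 838 bp with ACBI-1 and 368 to 1459 bp with DMSO, and ETS2-1 is at 939 to 1514 bp in MOLT4 and 712 to 999 bp in DND41.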

How the data were processed

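ATAC-seq peak lists of 16 libraries were used, in 8 groups of 2. Per the submitters' processing notes, Bowtie2, Picard, SAMtools and MACS2 2.1.1.2016030 were used with hg19, with no roles or settings given. The deposited values are the start and end positions of peaks, 1 list per library, with no height, score or read count, so depth is unknown and no counting interval is given. Coordinates are printed counted from 1.

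Peaks on chromosomes 1 to 22 and X that overlapped by 1 base or more were joined into regions. The values of a region are the presence of a peak and the summed peak width in each library. Two-sided exact permutation tests exchanged labels within the other factors (4 strata, 1296 exchanges, smallest p 0.00154), in Python 3.11.15 with numpy 2.4.6. They were adjusted by Benjamini-Hochberg over all testable regions, over all always-open regions (a peak in all 16 libraries, tested on log2 width computed from the deposited positions), or over all 100 kb bins with a mean of at least 3 regions and the 7 windows together, and called at an adjusted p under 0.05. A region was testable where its peaks allowed a p of 0.05. Within 1 line the smallest p is 0.0556, and within 1 line and time 0.333, so no test was made there.

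The members and lists were chosen with earlier results of these data known. All 7 loci are named. Within a locus the rule names up to 3 always-open regions by mean width, regions called lost or gained with ACBI-1, regions lost from all 4 DMSO libraries of a line under ACBI-1, and regions in all 8 libraries of 1 line and none of the other; others are marked in the text. Alternatives were whole lists against equal lengths, a minimum peak width of 170 bp, regions in at least 2 libraries, midpoints within 250 bp, covered bases, shares of each library's regions, a replicate block and each library left out. Covered bases per region and centred widths were added after the data were seen. Other ETS family genes and T-lineage marker genes were not analysed here.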

Additional observations from a re-analysis of the deposited data

Results flagged for a closer look

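Differences of the treatment effect between lines and between times, and of the line effect between times, were tested for the 7 windows as regions with a peak, covered bases and shares of a library's regions. With the widths of the 10 always-open regions, for the treatment effect alone, this made 83 exact permutation tests. Of these 8 had an unadjusted p of 0.05 or less, where 0.05 of 83 is 4.15, and none passed the adjustment. Line labels were exchanged for the treatment effect between lines, and time labels for the other differences. The p-values are exact only where the exchanged factor has no effect of its own, which otherwise adds to the spread. The 3 measures of a window are not independent.

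In the ETS1 window the bases covered by peaks averaged 1817 bp with ACBI-1 and 3742 bp with DMSO at 24 h, and 2472 bp with ACBI-1 and 2920 bp with DMSO at 3 h. The ACBI-1 difference at 24 h minus that at 3 h was -1476 bp (exact p = 0.00617, adjusted p = 0.508). In the ETV6 window they averaged 3914 bp with ACBI-1 and 7610.5 bp with DMSO at 24 h, and 3900.0 bp with ACBI-1 and 4938 bp with DMSO at 3 h, a difference of differences of -2659 bp (exact p = 0.0386, adjusted p = 0.662).

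As regions per 10000 of a library, the ETV6 window averaged 2.26 with ACBI-1 and 3.16 with DMSO at 24 h, and 2.87 with ACBI-1 and 2.80 with DMSO at 3 h, a difference of differences of -0.976 (exact p = 0.00309, adjusted p = 0.584). The ELF1 window averaged 1.52 with ACBI-1 and 1.21 with DMSO at 24 h, and 1.15 with ACBI-1 and 1.37 with DMSO at 3 h, a difference of 0.525 (exact p = 0.0324, adjusted p = 0.596). Between the lines ELF1 averaged 1.08 with ACBI-1 and 1.35 with DMSO in MOLT4, and 1.58 with ACBI-1 and 1.23 with DMSO in DND41, a difference of -0.622 (exact p = 0.0231, adjusted p = 0.995). ETS2 averaged 0.411 with ACBI-1 and 0.248 with DMSO in MOLT4, and 0.337 with ACBI-1 and 0.460 with DMSO in DND41, a difference of 0.286 (exact p = 0.0216, adjusted p = 0.995).

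At FLI1-2 the log2 ratio of widths, ACBI-1 over DMSO, was -0.27 in MOLT4 and 0.37 in DND41, which differ by -0.64 (exact p = 0.0278, adjusted p = 1). At ETV6-13 it was 0.07 in MOLT4 and -0.82 in DND41, which differ by 0.89 (exact p = 0.0463, adjusted p = 1).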

How the results depend on the processing

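With equal list lengths the regions lost and gained, and the always-open regions narrower and wider, each numbered 0 (2251, 9, 391 and 2 with whole lists). The treatment differences were then -1.625 regions at ETS1, -1 at FLI1, 0.625 at ERG, -2.625 at ETV6 and 0.625 at ELF1, and the line differences, MOLT4 minus DND41, 0.5 at FLI1, 1.375 at ETV6, its call lost (exact test, adjusted p = 0.391), and -1.375 at ELF1, now called. None of the treatment differences was called. As shares, in regions per 10000 of a library, treatment differences were -0.14 at ETS1, -0.15 at FLI1, -0.10 at ERG, 0.020 at ETS2, -0.42 at ETV6 and 0.044 at ELF1, none called, and the line difference at SPI1 was -0.27, called. In covered bases the treatment difference at ETS2 was -257 bp, called, and the line differences were 544 bp at FLI1, 288 bp at ETS2 and -243 bp at SPI1, the last 2 now called (exact test, adjusted p = 0.0194 and 0.0229), and 252 bp at ETV6, its call lost (0.608). With a common minimum width 713 regions were lost, 2 gained and 0 always-open regions wider, and the calls of ERG for treatment (-1.25, exact test, adjusted p = 0.0541) and ETV6 for line (1.125, 0.352) were lost. From midpoints 858 were lost, 2 gained, 0 narrower and 0 wider, and ETV6 was at 2 for line, not called. In regions of at least 2 libraries the ETV6 line difference was 1.125, not called (exact test, adjusted p = 0.200). By covered bases per region 4367 were lower and 37 higher, and with centred width 0 were narrower and 0 wider. The cause of these changes was not tested. Among the 100 kb bins, 29.1% were called higher in MOLT4 and 15.1% lower in covered bases. As shares 21.2% of the bins were called higher in MOLT4 and 10.8% lower.

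Width differences of same-numbered libraries had correlations of 0.019 and 0.013 in MOLT4 and 0.0024 and -0.16 in DND41, at 24 h and at 3 h. Such values cannot show whether the numbers pair the samples, for example by a shared culture, so pairing stays unknown. With the replicate block the smallest p is 0.0078 and none of these windows was called: ETS1 -2.5, FLI1 -2.625, ERG -1.75 and ETV6 -4.75 for treatment had adjusted p of 0.0631 to 0.0852, and ETS1 3, ERG 8 and ETV6 2 for line 0.0796. The block left 0 always-open regions narrower and 0 wider, and 1760 regions more often in DND41, against 2731.

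With 1 library left out the counts were 0 to 1110 lost, 0 to 6 gained, 0 to 825 narrower and 0 to 4 wider. The lost count was 0 in 7 of the 16. Treatment at ETS1 ranged over -2.875 to -2.125, and line over 1.625 to 2.375 at ETV6 and -1.25 to -0.75 at SPI1.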
